A study of Homo sapiens with 6 samples.

Results

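SR proteins and heterogeneous nuclear ribonucleoproteins (hnRNPs) were examined in 786-O cells after knockdown of NFE2L3. The genes were taken by name from the deposited table: 12 SRSF genes, 18 hnRNP genes and the 2 TRA2 genes, 32 of the 56303 genes in the table. This rule uses no measured value, but the genes were chosen with earlier results of these data known. The line 786-O derives from a clear cell renal cell carcinoma and lacks functional VHL. The study asked how NFE2L3, a transcription factor of the CNC family whose mRNA is acetylated by NAT10, acts in this tumour. In 3 libraries the cells had received an siRNA against NFE2L3 (siNFE2L3) and are labelled 48 h, and they were compared with 3 libraries of the same line given a control siRNA (siControl), labelled wild type and 0 h. All 6 libraries came from transfected cells of this 1 line. Effects of the siRNA and of the labelled time cannot be told apart, and the sources used here do not say which NFE2L3 siRNA was taken. The genotype label of siNFE2L3 replicates 2 and 3 reads NFE2L4 and NFE2L5, where the titles give NFE2L3. No source states that the libraries came from separate cultures, so the p-values refer to library-to-library spread, part or all of which may be technical.

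SR proteins bind exonic enhancers through RNA recognition motifs and recruit the spliceosome through a tail rich in arginine and serine. SR-protein kinases of the SRPK and CLK families phosphorylate this tail and set where the proteins sit in the nucleus and how they act. hnRNPs coat nascent transcripts, and several of them silence exons or compete with SR proteins for the same pre-mRNA, so that the balance of both families shapes exon choice. Many genes of both families limit their own level by splicing in a poison exon that sends the mRNA to nonsense-mediated decay (NMD). A count per gene adds productive and decay-bound transcripts together.

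The libraries held between 51828446 and 57391929 counts, of which the 32 genes took 1.43% to 1.50%. The targeted transcript was low in each knockdown library, with NFE2L3 at 1087, 1075 and 1068 reads in siNFE2L3 libraries and 6171, 6508 and 6403 reads in siControl libraries (log2 fold change -2.54, standard error 0.0482, adjusted p = 3.98e-22 by the quasi-likelihood test of edgeR). Of 7 markers of the line, such as PAX8, EPAS1 and VIM, all were at 103.3 CPM or more on average, where CPM is the count of a gene relative to its TMM-scaled library size. Of these 7, 4 were called lower and 2 higher (adjusted p under 0.05). Among all tested genes 26.7% were called, and 47.8% of those at 100 CPM or more. KRT8 had a log2 fold change of -0.32, KRT18 of -0.25 and CA12 of 0.17. Of 9 markers of blood, endothelial, stromal and epithelial cells, 8 were below 1 CPM, CDH5 was at 0 in every library, and EPCAM, which was called higher, was at 9.05 CPM in siNFE2L3 libraries and 7.47 CPM in siControl libraries. The part of these markers in the results was not tested. Fewer cells of a type and less RNA per cell cannot be told apart in such bulk libraries.

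Both families were abundant and nearly all of their genes were measured. Of the 32 genes, 31 passed the filter on low counts. SRSF12, a relative of SRSF10, had 4 reads in siNFE2L3 replicate 3 and 2 reads in siControl replicate 1 and none in the other libraries, so no fold change is given. Levels between genes are compared as RPKM, the CPM per kilobase of exon. The 18 hnRNP genes had a median of 94.1 RPKM in siNFE2L3 libraries and 96.9 RPKM in siControl libraries, and the 11 measured SRSF genes a median of 27.0 RPKM in siNFE2L3 libraries and 30.2 RPKM in siControl libraries. HNRNPA1, an exon silencer, stood highest at 293.3 ± 8.86 RPKM in siNFE2L3 libraries and 282.7 ± 4.41 RPKM in siControl libraries (SD, n = 3 each). HNRNPA2B1 came next at 202.1 ± 5.53 RPKM in siNFE2L3 libraries and 208.9 ± 6.09 RPKM in siControl libraries (SD, n = 3 each). These 2 genes made up 26.4% ± 0.369 of the summed hnRNP RPKM in siNFE2L3 libraries and 25.4% ± 0.394 in siControl libraries (SD, n = 3 each).

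Among SR genes, SRSF4 and SRSF11 led. SRSF4 was at 89.8 ± 4.75 RPKM in siNFE2L3 libraries and 87.7 ± 2.13 RPKM in siControl libraries, and SRSF11 at 94.1 ± 2.44 RPKM in siNFE2L3 libraries and 80.5 ± 6.75 RPKM in siControl libraries (SD, n = 3 each). The order of these 2 genes differed between the groups, but within each group their values overlapped. The least abundant measured gene was SRSF8, an intronless relative of SRSF2, at 1.23 ± 0.109 RPKM in siNFE2L3 libraries and 0.962 ± 0.172 RPKM in siControl libraries (SD, n = 3 each). HNRNPA0, whose annotated exons form 1 block, was the lowest hnRNP at 2.56 ± 0.179 RPKM in siNFE2L3 libraries and 2.36 ± 0.0743 RPKM in siControl libraries (SD, n = 3 each).

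**Figure D1:**
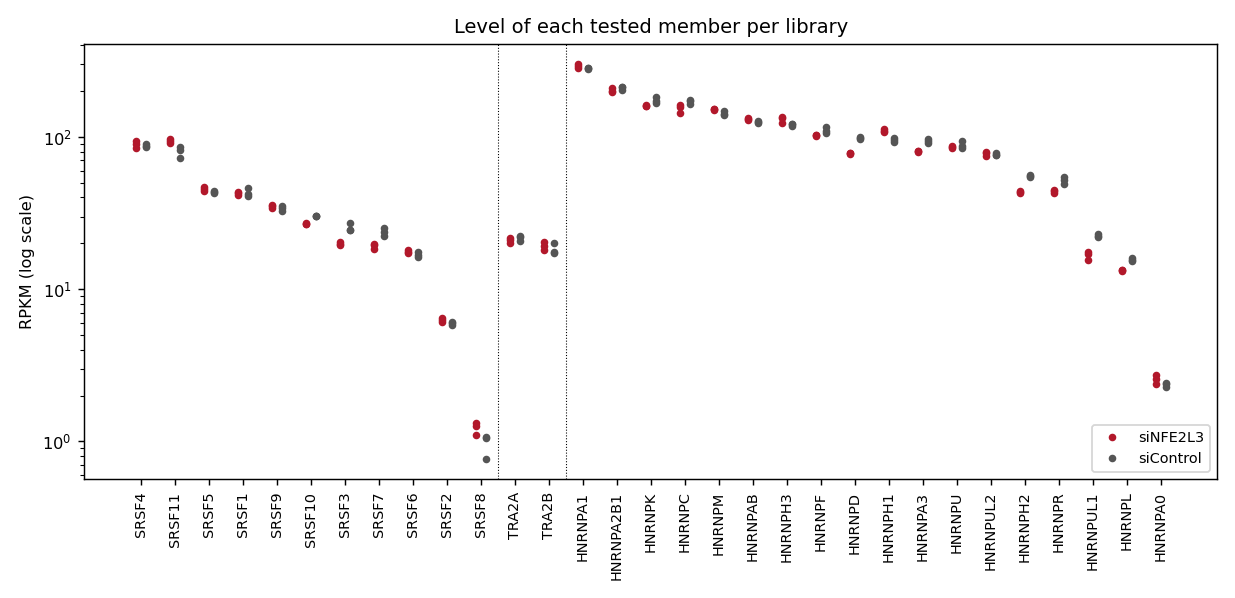
RPKM of each of the 31 tested genes (y axis, log scale) in the 3 siNFE2L3 libraries (red) and the 3 siControl libraries (grey), 1 point per library, ordered within SRSF, TRA2 and hnRNP genes by the siControl mean. Levels run from about 1 RPKM for SRSF8 to 293.3 RPKM for HNRNPA1, and the libraries of a gene lie close together beside the distance between genes.

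After NFE2L3 knockdown, 12 of the 31 measured genes fell and 4 rose (adjusted p under 0.05). Among all 19916 tested genes 26.7% were called at this threshold, 14% lower and 12.7% higher. Of 18 hnRNP genes 9 were lower, 2 higher and 7 not called, and of 11 SRSF genes 3 were lower, 2 higher and 6 not called. The changes were small, between 1.08-fold and 1.35-fold for the 16 called genes, and none reached the 2-fold change at p under 0.05 that the study used as its cutoff, which 1.1% of all tested genes did. With DESeq2 as well, none reached it. The median log2 fold change was -0.08 over the hnRNP genes and 0.04 over the SRSF genes, against -0.0007 over all tested genes. Abundant genes were called more often in these libraries. Among the 2018 tested genes at 100 CPM or more 47.8% were called, with 23.5% of the 2018 lower and 24.2% higher, and of the 24 members at that level 13 were called, 10 lower and 3 higher.

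The siNFE2L3 and siControl libraries did not overlap for 19 of the 31 genes, against 39.5% of all tested genes. At 100 CPM or more they did not overlap for 16 of 24 members and for 1204 of 2018 tested genes. Groups that do not overlap always give the smallest p that a two-sided exact permutation test allows for 3 libraries against 3, p = 0.1. The 16 called genes all had this p, as did SRSF5, HNRNPAB and HNRNPM, which were not called. It thus repeats the lack of overlap and adds no further support to the calls. When the test asked for a change beyond 1.2-fold, HNRNPUL1 was the 1 gene still called (adjusted p = 0.00434 by edgeR), against 4.41% of all tested genes.

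**Figure D2:**
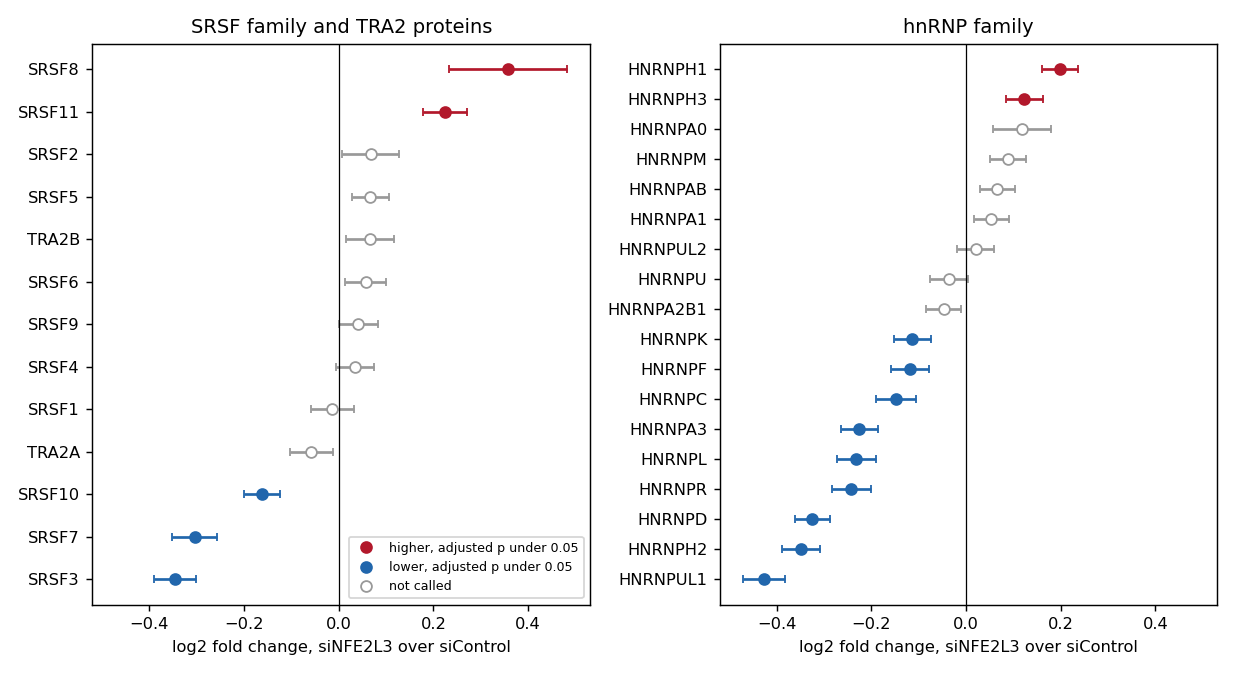
Log2 fold change of the tested SRSF and TRA2 genes (left) and hnRNP genes (right), siNFE2L3 over siControl, n = 3 libraries each, with edgeR estimates as points and their standard errors as bars. Filled blue and red points are lower and higher at an adjusted p under 0.05, open points are not called. The estimates run from -0.43 for HNRNPUL1 to 0.36 for SRSF8, whose error is the widest.

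Promoters were searched for the core of the antioxidant response element, TGACNNNGC on either strand, the sequence that CNC factors such as NFE2L3 recognise together with small MAF proteins. Its first letters are shared with the cyclic AMP response element. RefSeq windows (GRCh38.p14) were at hand for 29 of the 32 genes, all but SRSF2, TRA2A and HNRNPA1, and the 250 bases before each start were read. The core occurred in 6 of the 29 genes (20.7%), against 13.2% of 27305 genes. These were HNRNPF and HNRNPK, both called lower, and HNRNPA2B1, SRSF1, SRSF5 and TRA2B, none of them called. A match of letters is not a binding site. The study itself mapped binding of Flag-tagged NFE2L3 in 786-O cells by ChIP-seq, and those data were not used here. The common sequence it reports for binding at LASP1 was not searched. Every other motif searched in these windows was also more frequent among the 29 genes, as given below. The starts are those of RefSeq, and many genes extend further upstream in the deposited table. Windows of all 6 genes with a match, and those of SRSF3 and HNRNPUL1, overlap the gene as counted by at least some bases. Matches in 4 of the genes are shown for comparison of the core, in capitals, with 15 bases on each side, 5′ to 3′ on the strand of the gene.
HNRNPA2B1, chr7:26200791-26200829 on the minus strand: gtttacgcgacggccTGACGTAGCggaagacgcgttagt
HNRNPF, chr10:43408889-43408927 on the minus strand: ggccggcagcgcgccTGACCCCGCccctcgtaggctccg
HNRNPK, chr9:83980306-83980344 on the minus strand: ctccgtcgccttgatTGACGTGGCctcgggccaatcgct
SRSF1, chr17:58007373-58007411 on the minus strand: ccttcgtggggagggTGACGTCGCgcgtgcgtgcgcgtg

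SRSF3 and HNRNPUL1, which had the largest falls of their families, have no such match. Their 250 bases before the start are shown so that the letters can be read, in lower case throughout since nothing was marked. HNRNPUL1 has 3 RefSeq starts, and the window of the first is given.
SRSF3, chr6:36594112-36594361 on the plus strand: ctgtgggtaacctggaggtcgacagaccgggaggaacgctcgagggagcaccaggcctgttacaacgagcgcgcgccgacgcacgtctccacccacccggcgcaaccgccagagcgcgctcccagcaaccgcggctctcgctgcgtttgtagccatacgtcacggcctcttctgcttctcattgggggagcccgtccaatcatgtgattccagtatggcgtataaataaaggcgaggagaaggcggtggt
HNRNPUL1, chr19:41262307-41262556 on the plus strand: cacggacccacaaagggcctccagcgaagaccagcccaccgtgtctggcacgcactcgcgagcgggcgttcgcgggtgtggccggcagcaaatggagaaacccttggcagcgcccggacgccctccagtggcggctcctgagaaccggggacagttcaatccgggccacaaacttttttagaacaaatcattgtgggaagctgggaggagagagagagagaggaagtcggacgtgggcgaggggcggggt
The window of SRSF3 holds the letters TATAAA, as do windows of HNRNPAB, HNRNPC, HNRNPD, SRSF7 and SRSF11, 6 of 29 genes (20.7%) against 13.0% of 27305 genes searched on both strands. Of these 6, SRSF3, SRSF7, HNRNPC and HNRNPD were called lower, SRSF11 was called higher and HNRNPAB was not called. Over all 31 measured members 12 were called lower and 4 higher. Among tested genes at 100 CPM or more 23.5% were lower and 24.2% higher. In SRSF7 and SRSF11 the window of the start furthest upstream does not hold the letters. Whether the letters bear on the calls was not tested. The 42 windows of the members had a median GC content of 64.8%, against 58.0% over 35093 windows.

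Within the SR family, the closely related SRSF3 and SRSF7 fell together. Both encode small SR proteins that also act as adaptors for mRNA export. SRSF3, at chr6:36594353-36605600 (GRCh38, plus strand), had 141.5, 144.6 and 139.1 CPM in siNFE2L3 libraries and 174.2, 173.5 and 192.5 CPM in siControl libraries. The groups did not overlap, and siControl replicate 3 was the highest library. Its log2 fold change was -0.35 with a standard error of 0.0436 (edgeR, adjusted p = 1.32e-06), or 78.7% of control. SRSF7, at chr2:38743599-38751494 on the minus strand, had 80.2, 79.1 and 74.6 CPM in siNFE2L3 libraries and 90.1, 96.0 and 102.7 CPM in siControl libraries. Here too every knockdown library lay below every control library. The log2 fold change of SRSF7 was -0.30 with a standard error of 0.0479 (edgeR, adjusted p = 2.8e-05).

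SRSF10, which can repress splicing when its tail is dephosphorylated, also fell, and by a smaller step. SRSF10 had 275.2, 280.6 and 275.4 CPM in siNFE2L3 libraries and 310.4, 310.3 and 309.2 CPM in siControl libraries. The libraries of each group were tightly bunched, and the log2 fold change was -0.16 with a standard error of 0.0372 (edgeR, adjusted p = 0.00178).

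SRSF11 and SRSF8 rose. SRSF11, an SR-type protein that contacts U2AF, had 778.1, 794.2 and 819.2 CPM in siNFE2L3 libraries and 731.1, 696.3 and 619.2 CPM in siControl libraries. The control libraries were more spread than the knockdown libraries, and siControl replicate 3 was the lowest. Its log2 fold change was 0.22 with a standard error of 0.0468 (edgeR, adjusted p = 0.000713), and it lay between 0.16 and 0.28 with any 1 library left out. SRSF8 had 286, 297 and 229 reads in siNFE2L3 libraries and 230, 178 and 234 reads in siControl libraries, or 4.95 ± 0.437 CPM in siNFE2L3 libraries and 3.88 ± 0.694 CPM in siControl libraries (SD, n = 3 each). The rise of SRSF8 (0.36 ± 0.125 in log2 fold change with its standard error, edgeR adjusted p = 0.035) rests on few reads. It was not called without siNFE2L3 replicate 1 (adjusted p = 0.105 by edgeR), without siNFE2L3 replicate 2 (adjusted p = 0.135) or without siControl replicate 2 (adjusted p = 0.233, log2 fold change 0.21).

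The other measured SRSF genes were not called. SRSF1, the founding SR protein, had 138.1, 145.9 and 143.0 CPM in siNFE2L3 libraries and 153.7, 140.3 and 137.0 CPM in siControl libraries. These values overlapped, and the log2 fold change was -0.01 with a standard error of 0.0446 (edgeR, adjusted p = 0.87). SRSF2, known as SC35 and a marker of nuclear speckles, was at 18.8 ± 0.539 CPM in siNFE2L3 libraries and 18.0 ± 0.432 CPM in siControl libraries (SD, n = 3 each). SRSF4, SRSF5, SRSF6 and SRSF9, which share the paired recognition motifs of the family, had log2 fold changes of 0.03, 0.07, 0.06 and 0.04. The most abundant of these, SRSF4, had 755.2, 839.5 and 801.2 CPM in siNFE2L3 libraries and 800.7, 775.3 and 763.6 CPM in siControl libraries, with the widest spread among the knockdown libraries. SRSF6 was at 80.9 ± 1.76 CPM in siNFE2L3 libraries and 77.7 ± 2.79 CPM in siControl libraries, and SRSF9 at 131.3 ± 2.66 CPM in siNFE2L3 libraries and 127.6 ± 4.79 CPM in siControl libraries (SD, n = 3 each). SRSF5 was the 1 uncalled SRSF gene whose groups did not overlap, by a narrow margin, with 235.80 CPM in its lowest siNFE2L3 library and 235.77 CPM in its highest siControl library.

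TRA2A and TRA2B encode relatives of Drosophila transformer-2 that bind purine-rich enhancers alongside SR proteins. Neither was called by edgeR, DESeq2, the exact test of edgeR or limma-voom, and neither had an unadjusted p under 0.05 in edgeR. TRA2A had 75.9, 73.8 and 70.7 CPM in siNFE2L3 libraries and 77.9, 78.9 and 72.6 CPM in siControl libraries. TRA2B had 213.3, 238.8 and 227.5 CPM in siNFE2L3 libraries and 237.3, 206.8 and 204.8 CPM in siControl libraries. The log2 fold change was -0.06 for TRA2A and 0.07 for TRA2B. Replicate 2 of siNFE2L3 was the highest library of TRA2B, and its other siNFE2L3 values lay within the siControl range. Without siControl replicate 1, its highest control library, TRA2B was called higher (log2 fold change 0.14, adjusted p = 0.0174 by edgeR).

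Among hnRNPs, the largest falls were in HNRNPUL1, HNRNPH2, HNRNPD and HNRNPR. HNRNPUL1, a relative of HNRNPU that acts in mRNA processing and in the response to DNA breaks, lies at chr19:41262496-41307598 on the plus strand. It had 111.1, 102.1 and 115.3 CPM in siNFE2L3 libraries and 151.2, 144.1 and 146.5 CPM in siControl libraries. This was the largest fall of the 31 genes, to 74.4% of control (-0.43 ± 0.0448 in log2 fold change with its standard error, edgeR adjusted p = 7.69e-08). HNRNPH2, an X-linked protein that binds runs of G, had 95.7, 96.7 and 97.4 CPM in siNFE2L3 libraries and 121.9, 122.6 and 124.6 CPM in siControl libraries. Both groups were narrow and far apart, and the log2 fold change was -0.35 with a standard error of 0.0396 (edgeR, adjusted p = 2.67e-07).

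HNRNPD, also known as AUF1, binds AU-rich elements and promotes the decay of mRNAs that carry them. HNRNPD, at chr4:82352498-82374503 on the minus strand, had 549.1, 550.4 and 536.8 CPM in siNFE2L3 libraries and 682.9, 673.4 and 693.4 CPM in siControl libraries. The groups were separated by more than 100 CPM, and the log2 fold change was -0.32 with a standard error of 0.0368 (edgeR, adjusted p = 2.6e-07). HNRNPR, which resembles SYNCRIP, had 387.7, 371.9 and 380.1 CPM in siNFE2L3 libraries and 454.2, 424.1 and 469.8 CPM in siControl libraries. Its log2 fold change was -0.24 with a standard error of 0.0412 (edgeR, adjusted p = 7.33e-05). HNRNPL, a protein that binds CA repeats, fell by 0.23 on the log2 scale (adjusted p = 0.000112 by edgeR), and HNRNPA3, of the A/B group, fell by 0.23 (adjusted p = 7.7e-05). HNRNPL stood at 91.0 ± 1.03 CPM in siNFE2L3 libraries and 106.8 ± 2.66 CPM in siControl libraries, and HNRNPA3 at 483.9 ± 5.69 CPM in siNFE2L3 libraries and 565.7 ± 20.3 CPM in siControl libraries (SD, n = 3 each).

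HNRNPC, HNRNPF and HNRNPK fell by less, and their calls were less stable. HNRNPC, which binds U tracts and packages long pre-mRNAs, had 1050.4, 1145.4 and 1177.9 CPM in siNFE2L3 libraries and 1273.8, 1203.4 and 1259.6 CPM in siControl libraries. The lowest library was siNFE2L3 replicate 1, and without it the call was lost (log2 fold change -0.10, adjusted p = 0.0954 by edgeR, against -0.15 and adjusted p = 0.0101 with all libraries). HNRNPF, of the F/H group, was at 332.2 ± 3.01 CPM in siNFE2L3 libraries and 360.6 ± 15.4 CPM in siControl libraries (SD, n = 3 each), with a log2 fold change of -0.12 (adjusted p = 0.0278 by edgeR). HNRNPK, which binds C-rich RNA and DNA through KH domains, was at 819.8 ± 13.0 CPM in siNFE2L3 libraries and 887.0 ± 40.4 CPM in siControl libraries (SD, n = 3 each), with a log2 fold change of -0.11 (adjusted p = 0.0333 by edgeR). Both calls were lost without siNFE2L3 replicate 1, 2 or 3 or siControl replicate 3. The adjusted p was then 0.0634, 0.0969, 0.0776 and 0.15 for HNRNPF and 0.0997, 0.0505, 0.121 and 0.187 for HNRNPK, in that order of libraries. With upper quartile scaling the adjusted p was 0.0811 for HNRNPF and 0.0997 for HNRNPK.

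HNRNPH1 and HNRNPH3 rose, while their relative HNRNPH2 fell. HNRNPH1 had 1022.2, 1068.9 and 1038.5 CPM in siNFE2L3 libraries and 878.0, 937.7 and 911.3 CPM in siControl libraries. Every knockdown library was above every control library, and the log2 fold change was 0.20 with a standard error of 0.0382 (edgeR, adjusted p = 0.000302). HNRNPH3 had 663.8, 722.7 and 716.1 CPM in siNFE2L3 libraries and 650.6, 649.9 and 630.2 CPM in siControl libraries, with siNFE2L3 replicate 1 close to the controls. Its log2 fold change was 0.12 with a standard error of 0.0398 (edgeR, adjusted p = 0.0226), and the call was lost without siNFE2L3 replicate 2 (adjusted p = 0.126), siNFE2L3 replicate 3 (adjusted p = 0.126) or siControl replicate 3 (adjusted p = 0.0815).

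**Figure D3:**
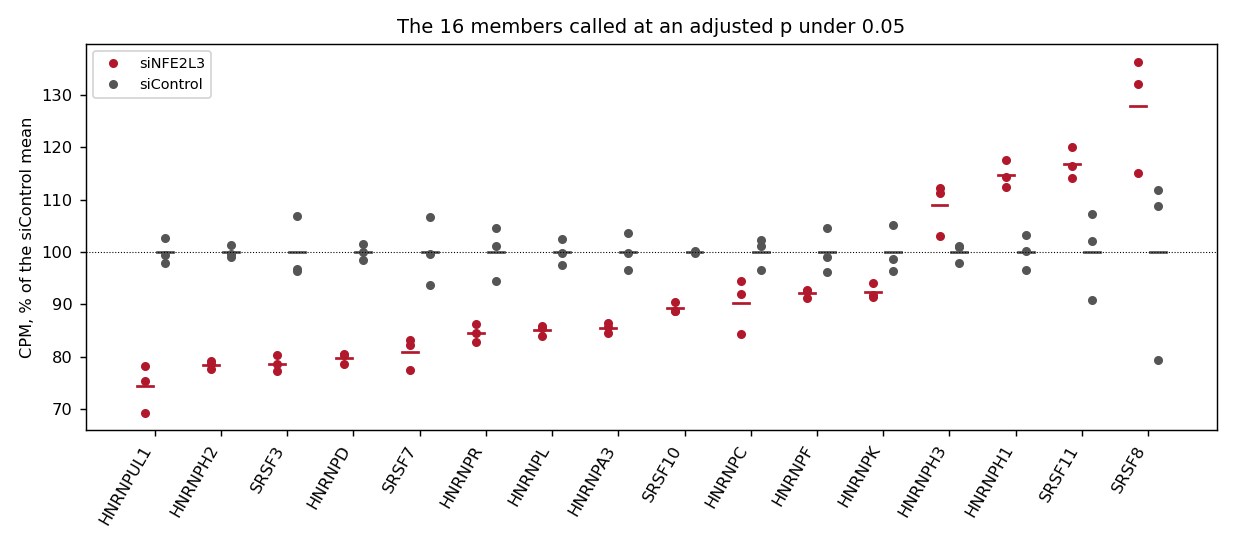
CPM of the 16 called genes in each siNFE2L3 library (red) and each siControl library (grey), as a percentage of the siControl mean of the gene, with short bars for group means and genes ordered by log2 fold change. HNRNPUL1 has the lowest mean, at 74.4%, and SRSF8 the highest, at 128%, with its 3 libraries of each group spread widely.

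The remaining hnRNPs were not called, and several of them are the most abundant ones. HNRNPA1 had 1450.1, 1540.1 and 1490.5 CPM in siNFE2L3 libraries and 1413.9, 1453.4 and 1452.1 CPM in siControl libraries, and these values overlapped (0.05 ± 0.0371 in log2 fold change with its standard error, edgeR adjusted p = 0.325). HNRNPU, which binds chromatin-associated RNA and nuclear scaffold DNA, had a log2 fold change of -0.04, its relative HNRNPUL2 one of 0.02, HNRNPAB one of 0.07 and HNRNPA0 one of 0.12. HNRNPAB had 276.8, 282.3 and 283.7 CPM in siNFE2L3 libraries and 263.2, 269.5 and 272.3 CPM in siControl libraries, which did not overlap (adjusted p = 0.214 by edgeR). HNRNPU was at 1166.6 ± 14.5 CPM in siNFE2L3 libraries and 1196.3 ± 64.6 CPM in siControl libraries, and HNRNPUL2 at 412.5 ± 14.5 CPM in siNFE2L3 libraries and 406.8 ± 4.51 CPM in siControl libraries (SD, n = 3 each). HNRNPM, a regulator of splicing in epithelial to mesenchymal transition, had 859.0, 852.2 and 845.5 CPM in siNFE2L3 libraries and 777.1, 792.2 and 836.4 CPM in siControl libraries. Its groups did not overlap, with a log2 fold change of 0.09 (adjusted p = 0.0939 by edgeR). HNRNPM was called higher under upper quartile scaling (adjusted p = 0.0479) and when siControl replicate 3 was left out (adjusted p = 0.0355). Over the 15 uncalled genes of all families, log2 fold changes lay between -0.06 and 0.12, with standard errors from 0.0371 to 0.0615.

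HNRNPA2B1, a reader of RNA modifications and of sorting motifs in small RNAs, is also the nearest tested protein-coding gene downstream of the targeted gene. It lies at chr7:26189927-26201529 on the minus strand, 2801 bases beyond the end of NFE2L3. HNRNPA2B1 had 1496.5, 1571.7 and 1503.0 CPM in siNFE2L3 libraries and 1522.1, 1599.6 and 1603.4 CPM in siControl libraries. These ranges overlapped, and the log2 fold change was -0.05 with a standard error of 0.0378 (edgeR, adjusted p = 0.391). The next gene, CBX3, a heterochromatin protein read from the opposite strand, shares 368 bases of exon with HNRNPA2B1 and fell. CBX3 was at 457.4 ± 14.2 CPM in siNFE2L3 libraries and 541.7 ± 23.8 CPM in siControl libraries (SD, n = 3 each; log2 fold change -0.24, adjusted p = 5.76e-05 by edgeR).

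To compare related genes directly, the ratio of their levels was computed within each library. The pairs were chosen by family relation with the values known, and the ratios are a description. The ratio of HNRNPH1 to HNRNPH2 RPKM averaged 2.53 ± 0.0513 in siNFE2L3 libraries and 1.73 ± 0.055 in siControl libraries (SD, n = 3 each). The ratio of HNRNPUL2 to HNRNPUL1 was 4.41, 5.06 and 4.54 in siNFE2L3 libraries and 3.31, 3.46 and 3.48 in siControl libraries. For HNRNPAB over HNRNPD the ratio averaged 1.68 ± 0.0403 in siNFE2L3 libraries and 1.28 ± 0.0241 in siControl libraries (SD, n = 3 each). In each of these pairs the groups did not overlap, and the partner in front was the one with the larger log2 fold change. The ratio of SRSF3 to SRSF7, which fell side by side, averaged 1.03 ± 0.0287 in siNFE2L3 libraries and 1.06 ± 0.0357 in siControl libraries (SD, n = 3 each). Its groups overlapped, as did those of SRSF1 over SRSF9, TRA2B over TRA2A and SRSF4 over SRSF6.

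**Figure D4:**
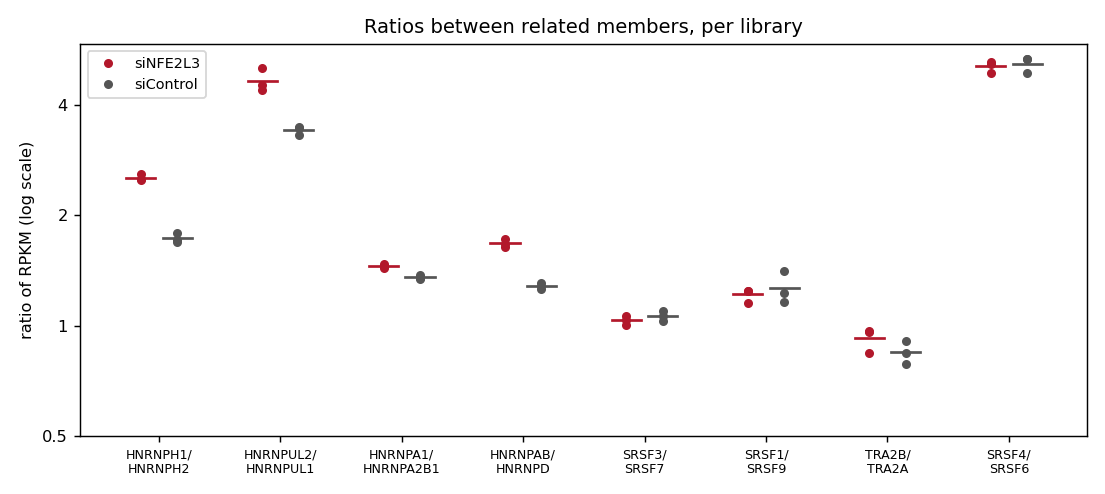
Ratio of the RPKM of 2 related genes (y axis, log scale) in each siNFE2L3 library (red) and each siControl library (grey), with short bars for group means. HNRNPH1 over HNRNPH2, HNRNPUL2 over HNRNPUL1, HNRNPA1 over HNRNPA2B1 and HNRNPAB over HNRNPD lie higher in every siNFE2L3 library than in any siControl library, and the other 4 ratios overlap.

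Summed over the families, the totals changed little. The SRSF genes together had 389.2, 406.3 and 399.4 RPKM in siNFE2L3 libraries and 400.0, 389.5 and 385.9 RPKM in siControl libraries, with overlapping groups. The hnRNP genes together had 1842.7, 1905.5 and 1883.0 RPKM in siNFE2L3 libraries and 1907.1, 1923.4 and 1972.4 RPKM in siControl libraries, 97.0% of control on average. The ratio of the hnRNP sum to the SRSF sum was 4.73, 4.69 and 4.71 in siNFE2L3 libraries and 4.77, 4.94 and 5.11 in siControl libraries. Every knockdown library lay below the control libraries, and the control libraries were the more spread.

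The annotation of the genes themselves was compared next. By symbol, all 12 SRSF genes, both TRA2 genes and 12 of 18 hnRNP genes have at least 1 transcript annotated as a target of NMD in GENCODE v44. This is 26 of 32 genes, or 81.2%, against 46.6% of 12943 tested protein-coding genes matched by symbol and 53.0% of those at 100 CPM or more. HNRNPA2B1 has 35 such transcripts of 49, and SRSF7 has 6 of 12. HNRNPUL1, with the largest fall, has 3 of 21, and HNRNPH2, with the next largest, has none and a sole annotated transcript. How much of each count came from such transcripts was not measured here. The 32 genes have a median of 13.5 annotated transcripts, against 8 for the tested genes and 11 for those at 100 CPM or more. The part of this in the NMD shares was not tested.

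Some of the counts may be shared with other genes. HNRNPUL2 shares 44.5% of its exon bases with the readthrough gene HNRNPUL2-BSCL2, which was at 392.7 CPM in siNFE2L3 libraries and 385.9 CPM in siControl libraries, close to HNRNPUL2 itself. HNRNPH2 shares 16.3% with RPL36A-HNRNPH2, which had a log2 fold change of -0.03, unlike HNRNPH2. HNRNPL shares 8.22% with AC104534.3 of the same strand, which fell by 0.23 on the log2 scale (adjusted p = 0.000574 by edgeR), and SRSF1 shares 9.91% with RP11-159D12.5. On the opposite strand, GATC covers 46.2% of the SRSF9 exons, MFSD11 36.7% of those of SRSF2 and COX20 25.8% of those of HNRNPU. COX20 rose (log2 fold change 0.24, adjusted p = 0.000214 by edgeR) and HNRNPU, with a log2 fold change of -0.04, was not called. Of 5 members with the largest falls (HNRNPUL1, HNRNPH2, SRSF3, HNRNPD and SRSF7), SRSF3 and SRSF7 share no exon base with another gene. Copies of HNRNPA1 named as such in the table number 76 and held 2.61% as many reads as HNRNPA1, and those of HNRNPC held 1.62% as many as HNRNPC. The part of shared reads in the results was not tested.

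Genes that work with both families were counted in the same fit, in lists chosen with earlier results of these data known. Of 10 genes for kinases of SR proteins and their importer TNPO3, 3 were lower, 2 higher and 5 not called, with CLK1 at -0.24, CLK4 at -0.21 and CLK2 at 0.18 in log2 fold change (adjusted p at most 0.00423 by edgeR). Of 15 other SR-related genes 7 were higher and 1 was lower. PNN, which sits at exon junctions, averaged 1048.1 CPM in siNFE2L3 libraries and 822.0 CPM in siControl libraries (log2 fold change 0.35 with a standard error of 0.0413, adjusted p = 4.74e-07), and LUC7L3, of the U1 snRNP, had a log2 fold change of 0.38 (adjusted p = 2.39e-06). Of 16 other hnRNP-type genes 6 were higher and 3 were lower. Among them TAF15, an RNA-binding protein, rose by more than any of the 32 genes (log2 fold change 0.49, adjusted p = 8.37e-10 by edgeR), with 596.5 ± 15.7 CPM in siNFE2L3 libraries and 424.0 ± 13.9 CPM in siControl libraries (SD, n = 3 each).

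Of 16 other splicing regulators 4 were lower, 1 was higher and 11 were not called. RBM25 rose (log2 fold change 0.35), and RBM4 (-0.23) and CELF1 (-0.21) fell. In the core spliceosome, 4 of 11 genes for U1 and Sm proteins were lower and none was higher by edgeR. None was higher at an unadjusted p under 0.05 or by DESeq2, the exact test of edgeR or limma-voom either. SNRPE fell by 0.40 and SNRPG by 0.20 on the log2 scale. Of 16 genes for U2 snRNP and U2AF 4 were higher and 2 lower, and SF3B2 rose to 828.3 ± 20.5 CPM in siNFE2L3 libraries, against 642.6 ± 32.4 CPM in siControl libraries (SD, n = 3 each; log2 fold change 0.37, adjusted p = 1.95e-07 by edgeR). Of 14 genes for U5 and tri-snRNP proteins 5 were lower and 2 higher, with PPIH at -0.49 and SNRNP27 at -0.34. Of 5 exon junction genes 2 were higher, among them CASC3 (0.25), and 1 was lower, MAGOH (-0.16).

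Of 10 NMD factors 4 were higher and none was lower by edgeR. None was lower at an unadjusted p under 0.05 or by DESeq2, the exact test of edgeR or limma-voom. UPF3B (log2 fold change 0.26, adjusted p = 0.000374 by edgeR), UPF2 (0.24, adjusted p = 0.000199) and UPF3A (0.15, adjusted p = 0.0134) rose. The median log2 fold change of the 10 genes was 0.03. No list was tested as a set, and these counts stand beside the 14% of genes lower and 12.7% higher over the whole table. Among tested genes at 100 CPM or more, 23.5% were lower and 24.2% higher. Genes named above such as PNN, TAF15, SF3B2 and UPF2 were at that level.

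**Figure D5:**
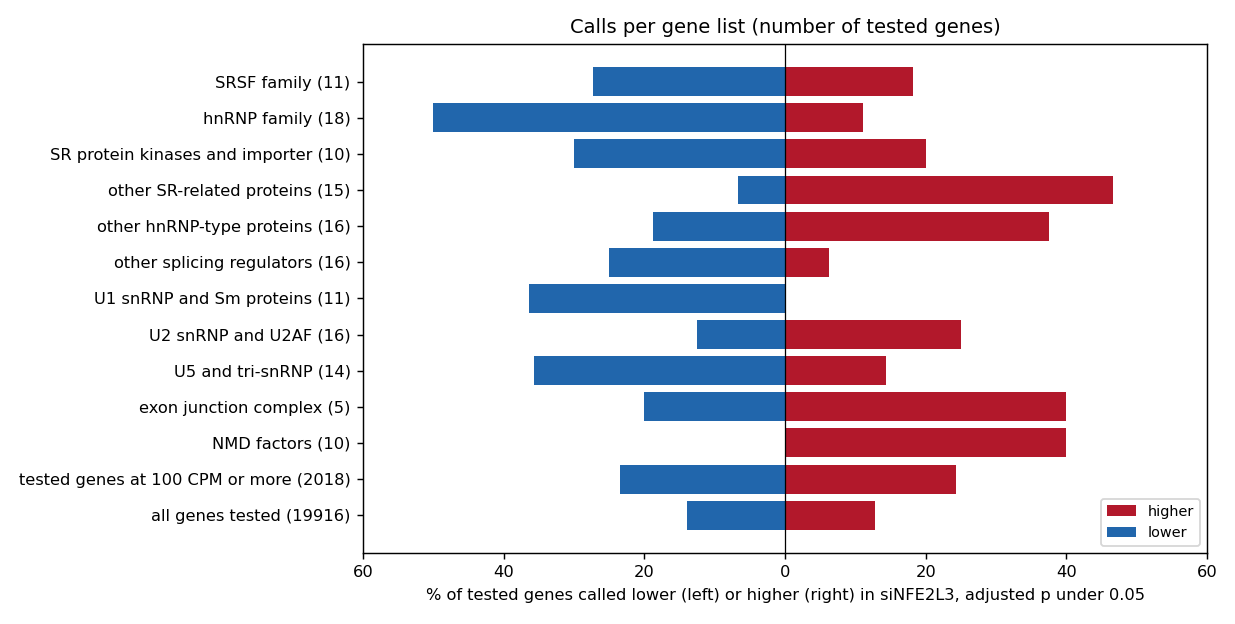
Share of the tested genes of each list called lower (blue, to the left) or higher (red, to the right) in siNFE2L3 libraries at an adjusted p under 0.05, with the number of tested genes in brackets. The hnRNP genes have 50.0% lower and 11.1% higher, the other SR-related genes 6.67% lower and 46.7% higher, and all tested genes 14.0% lower and 12.7% higher. Tested genes at 100 CPM or more have 23.5% lower and 24.2% higher.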

How the data were processed

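RNA-seq of 786-O cells was analysed in 3 siNFE2L3 and 3 siControl libraries. The methods and the notes of the submitters name Trimmomatic 0.36 for trimming. The authors merged reads of 1 molecular identifier, mapped them with STAR 2.5.3a to the human genome of Ensembl and counted reads in exons with featureCounts (Subread 1.5.1), and the deposited values are these raw counts per gene, with the exon length of each gene. Strand setting and the handling of reads over several genes are not given in the sources used here. Coordinates overlap those of RefSeq GRCh38.p14 for all 32 genes.

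Here, genes were kept by filterByExpr (minimum count 10, 19916 genes), scaled by TMM and compared by quasi-likelihood F-test (edgeR 4.0.16, R 4.3.3), without a replicate block, with Benjamini-Hochberg adjustment over all tested genes. The standard error is the absolute log2 fold change over the root of F. The procedure was tested on simulated data. Library totals ran from 51828446 to 57391929 counts. The common biological coefficient of variation, estimated by edgeR from the spread of genes between libraries of a group, was 4.76%. In each library 67.6% to 69.9% of counts under 30 were even, as happens where each mate counts once, so halved counts were 1 alternative. Others were RLE, upper quartile and unscaled libraries, limma-voom (limma 3.58.1), DESeq2 1.42.0, the exact test in edgeR, omission of the filter, a filter of 10 counts in each library, the replicate number as a block, omission of each library, and a test of folds beyond 1.2.

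All 32 members were named. Of the related lists, up to 3 genes with the smallest adjusted p were named, and genes that overlap or copy a member. Not all of these are reported here. The members and lists were chosen with earlier results of these data known.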

Additional observations from a re-analysis of the deposited data

How the results depend on the processing

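Of 527 values of the 31 measured genes under 17 alternatives, 488 kept their side of the threshold, 36 lost a call, 3 gained one and none of the called genes changed direction. Leaving aside the test against a fold of 1.2, 11 of the 16 calls held under all 16 other alternatives: SRSF3, SRSF7, SRSF10, SRSF11, HNRNPA3, HNRNPD, HNRNPH1, HNRNPH2, HNRNPL, HNRNPR and HNRNPUL1. Against a fold of 1.2, 1 gene was lower and 0 were higher, with 0 lower and 0 higher SRSF genes and 1 lower and 0 higher hnRNP genes.

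With the replicate block 2 genes were called higher, 1 SRSF and 1 hnRNP gene, and the calls of SRSF8, HNRNPF, HNRNPH3 and HNRNPK were lost at adjusted p-values from 0.0511 to 0.0699 by edgeR. Deviations of same-numbered libraries correlated at -0.02, -0.07 and -0.03, so no pairing by number was seen. With 3 libraries a group, such values cannot decide whether same-numbered libraries were handled together. With 1 library left out, between 2 and 5 genes were higher and between 9 and 12 lower, with 1 to 2 SRSF, 1 to 2 hnRNP and 0 to 1 TRA2 genes higher and 6 to 9 hnRNP genes lower. NFE2L3 itself lay between -2.57 and -2.51. No scaling moved the median of all genes by more than 0.02 on the log2 scale. SRSF8, with 178 to 297 reads a library, had the widest standard error of the 31 genes. The cause of the lost calls was not tested.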
